A study of Mus musculus with 2 samples.

Results

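The epidermal growth factor (EGF)-like ligands and ErbB receptors carry the ovulatory signal from the outer to the inner cells of the follicle. Luteinizing hormone induces EGF-like ligands in mural granulosa cells. The ligands are made as membrane precursors, are released by ADAM metalloproteases, and activate the EGF receptor on granulosa and cumulus cells. The receptor then drives the ERK kinases, expansion of the cumulus matrix and resumption of oocyte meiosis. Errfi1, also called Mig-6, is a feedback inhibitor that binds the EGF receptor kinase.

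The family was defined as 10 gene symbols, the ligands Areg, Ereg, Btc, Epgn, Hbegf and Tgfa, the receptors Egfr, Erbb2 and Erbb3, and Errfi1. Probe sets were taken where the platform annotation names exactly 1 gene and that gene is one of these. This gave 21 probe sets for 9 genes, of 18193 named genes on the array. No probe set was named Areg. Both samples were whole ovaries, taken from CD-1 mice of wild type genotype aged 24 to 28 days. Follicle growth was driven with 5 IU of PMSG, a gonadotropin from pregnant mares, and ovulation was triggered 48 h later with 5 IU of human chorionic gonadotropin (hCG), an agonist of the luteinizing hormone receptor. At 2 h after hCG, the vehicle group received oil and the ulipristal group received ulipristal acetate (also labelled CDB), a modulator of the progesterone receptor. Ovaries were collected at 11 h, without a statement of which injection that time is counted from, and each group gave 1 array. How many mice each RNA sample represents is not given by the labels.

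Values are MAS5 signals, which combine the probes of a probe set into 1 intensity in arbitrary units. The trimmed mean of each array was 150.001. Signals of different probe sets are not comparable as amounts of RNA. Ratios are ulipristal over vehicle, on the log2 scale unless a fold is named. With 1 array per group the spread between animals is unknown. No standard deviation or p-value is therefore given, and every difference is one between these 2 samples. A gene was represented by its brightest probe set, and counted as measured where its mean log2 signal was at or above the median probe set, a signal of 30.8. As a guide to technical scatter only, the 2 brightest measured probe sets of the same gene differed in log2 ratio by a median of 0.29, with a 95th percentile of 0.93, over 4955 genes. Poly-A spike controls (median log2 ratio -0.58) and 18S ribosomal RNA features (-1.27) were brighter with vehicle. The 3′ to 5′ signal ratio of Gapdh was 1.204 with vehicle and 0.866 with ulipristal, and that of Actb was 2.40 and 1.87. Their part in the results was not tested.

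The promoters of Epgn, Btc and Errfi1 are shown because these genes were lower together and have a RefSeq entry (build GRCm38.p6). Each sequence is the 160 bases before an annotated transcription start, 5′ to 3′ on the strand of the gene. Capitals mark matches, on either strand, to sites named in the motif search. These were the cyclic AMP response element TGACGTCA, and its half-site, which reads TGACG. Also searched was the site of AP-1, which reads TGANTCA with N for any base. The GC box was searched as GGGCGG. The half-site of steroid receptors was searched as TGTTCT. The core promoter elements searched were the TATA box, as TATAAA, and the CCAAT box. The Epgn stretch is chr5:91027357-91027516 (plus strand), the Btc stretch chr5:91402995-91403154 (minus strand) and the Errfi1 stretch chr4:150854910-150855069 (plus strand), before the downstream of the 2 listed starts of that gene.
Epgn: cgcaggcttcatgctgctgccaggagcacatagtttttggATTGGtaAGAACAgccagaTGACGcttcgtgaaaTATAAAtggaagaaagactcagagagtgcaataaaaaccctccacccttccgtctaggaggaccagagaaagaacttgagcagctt
Btc: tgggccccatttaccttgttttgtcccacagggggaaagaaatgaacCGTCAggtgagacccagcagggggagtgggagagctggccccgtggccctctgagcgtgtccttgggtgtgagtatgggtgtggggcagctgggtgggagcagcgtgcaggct
Errfi1: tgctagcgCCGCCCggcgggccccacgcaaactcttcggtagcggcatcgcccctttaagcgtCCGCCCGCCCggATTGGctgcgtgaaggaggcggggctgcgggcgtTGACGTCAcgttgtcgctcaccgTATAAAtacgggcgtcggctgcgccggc

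The half-site TGACG was present in all of these 3 stretches, 101 bases before the start in Epgn, 113 in Btc and, within a complete TGACGTCA, 51 in Errfi1. Among 32851 promoter windows of 300 bases (250 before and 50 after the start), 20.8% held TGACG and 1.79% the complete element, which contains the half-site on both strands. The Areg window also held TGACGTCA, 61 bases before the start. The Erbb2 window held TGACG 171 bases before the start, and the log2 ratio of Erbb2 was 0.35. No TGACG was found in the Egfr and Tgfa windows. The Epgn stretch was the only one of the 3 with the steroid receptor half-site, which 18.97% of all windows held. In Errfi1, 2 of the GC boxes overlap each other, and the window of its upstream start held none of the sites searched. AP-1 sites, in 7.81% of all windows, were not found in the windows of these genes. The GC box was held by 35.7%, the TATA box by 13.6% and the CCAAT box by 37.4% of windows. Such matches are a description of the letters and do not show that a factor binds there. Ereg, Hbegf and Erbb3 had no entry in the promoter table.

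The ligands did not behave alike. Epiregulin, epigen and betacellulin were lower with ulipristal by 3-fold or more, whereas heparin-binding EGF and transforming growth factor alpha differed by less than 2-fold. Of the 5 measured ligands, 3 lay 2-fold or more below vehicle and 0 lay 2-fold or more above it. Over the 9 measured members, 4 were lower by 2-fold or more, where 1.56% of the 11364 measured genes were, and 1 was higher by 2-fold or more, where 3.34% were. The members' median log2 ratio was -0.57 and that of all measured genes 0.09. Epgn and Btc passed the filter on low signal only through their vehicle signal, so their presence among the measured members is tied to their difference, and the count is given as a description.

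Ereg encodes epiregulin, a ligand of the EGF receptor and one of the main ovulatory ligands in the mouse follicle. Its single probe set, 1419431_at, read 3881 with vehicle and 534 with ulipristal. The signal was therefore high on both arrays and 7.26-fold lower with ulipristal, a log2 ratio of -2.86. That ratio ranked 10 from the lowest among measured genes. Among the 1137 brightest genes, to which Ereg belongs, 1.58% were lower by 2-fold or more.

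Epgn encodes epigen, a ligand of the EGF receptor that binds it with low affinity. Its single probe set, 1449994_at, read 145 with vehicle and 20.6 with ulipristal. The ulipristal signal lay below the filter but above the floor of 7.17, the 25th percentile of all signals. The difference was 7.03-fold, a log2 ratio of -2.81 that ranked 11 from the lowest, next after Ereg. With 50 added to every signal the ratio was -1.46, still past 2-fold. Of the 1136 genes in the same band of signal, 1.41% were lower by 2-fold or more.

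Btc encodes betacellulin, a ligand of both the EGF receptor and ErbB4. Its brighter probe set, 1435541_at, read 78.7 with vehicle and 22.9 with ulipristal, 3.44-fold lower. Its dimmer probe set, 1421161_at, was not measured, with 14.4 on the vehicle array and 4.66, below the floor, on the ulipristal array. Both probe sets were thus lower with ulipristal, at low signal. The log2 ratio of the brighter one was -1.78, rank 40 from the lowest, and -0.82 with 50 added to every signal, which is short of 2-fold.

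Areg, amphiregulin, the other main ovulatory ligand, has no named probe set here. Probe set 1421134_at was examined as a candidate, and the platform annotation used has no entry for it, so no gene is assigned to it. It read 158 with vehicle and 6.93 with ulipristal, below the floor. The fold against the floor was at least 22.0-fold lower, a log2 ratio of -4.46, and the ratio ran from -4.58 to -1.87 under the other processing settings. These values are not counted among the family members.

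Hbegf encodes the heparin-binding ligand, and its measured probe sets disagreed. Probe set 1418350_at read 64.9 with vehicle and 95.2 with ulipristal, a log2 ratio of 0.55. Probe set 1418349_at read 47.0 and 30.2, a log2 ratio of -0.64. No direction can be given for this gene, and the median over both was -0.04.

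Tgfa encodes transforming growth factor alpha, a membrane-anchored ligand of the EGF receptor. Its measured probe set, 1421943_at, read 260 with vehicle and 321 with ulipristal, a log2 ratio of 0.31. The 2 dimmer probe sets pointed in opposite directions, with signals of 25.2 and 20.1 on one and 10.1 and 19.4 on the other. The difference on the measured probe set was about the size of the median scatter between probe sets of the same gene.

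**Figure D1:**
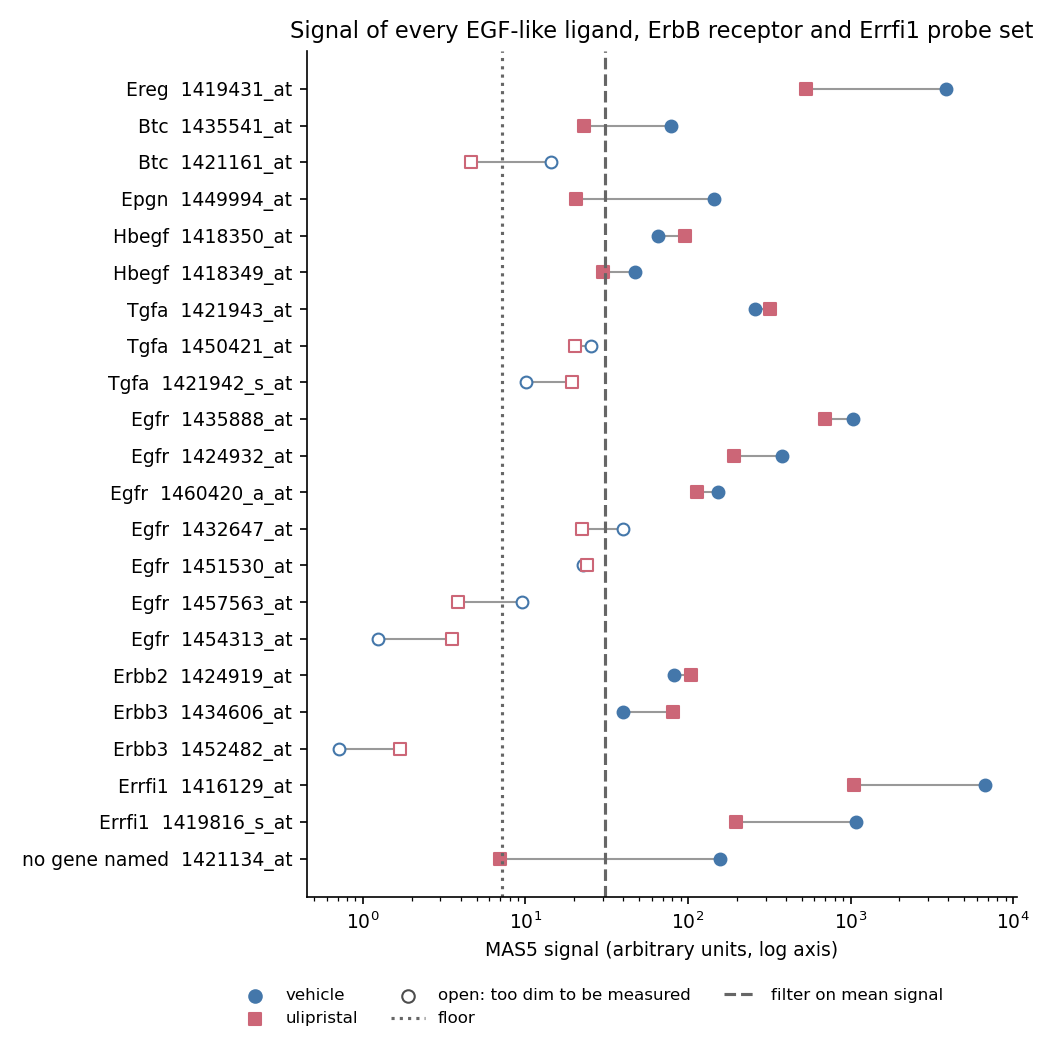
MAS5 signal (arbitrary units, log axis) of all 21 family probe sets and of the unnamed 1421134_at, with a circle for the vehicle array and a square for the ulipristal array (n = 1 each); open symbols are probe sets too dim to be measured, the dotted line is the floor of 7.17 and the dashed line the filter at 30.8. The symbols lie far apart for Ereg (3881 and 534), Epgn (145 and 20.6), Btc and both Errfi1 probe sets.

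Among the receptors, none was at least 2-fold lower. Egfr encodes the EGF receptor, to which all of these ligands bind. Its brightest probe set, 1435888_at, read 1030 with vehicle and 694 with ulipristal, a log2 ratio of -0.57. Probe set 1424932_at read 379 and 193, a log2 ratio of -0.98, and probe set 1460420_a_at read 154 and 114, a log2 ratio of -0.43. All 3 measured Egfr probe sets were thus lower with ulipristal, and each was short of 2-fold. Of the 4 Egfr probe sets too dim to be measured, one read 39.9 and 22.3, one 22.5 and 23.8, and the others were near or below the floor on both arrays.

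Erbb2 encodes a receptor with no known ligand of its own that pairs with the other ErbB receptors. Its single probe set, 1424919_at, read 82.1 with vehicle and 104 with ulipristal, a log2 ratio of 0.35. Erbb3 encodes a receptor with little kinase activity that binds neuregulins. Its measured probe set, 1434606_at, read 39.6 with vehicle and 80.4 with ulipristal, 2.03-fold higher, and its other probe set read 0.71 and 1.68, below the floor on both arrays. The log2 ratio of Erbb3 was 1.02, just past 2-fold, at a low signal where 7.04% of the 1136 genes in the same band of signal were higher by 2-fold or more. It was 0.90 after quantile normalization, 0.89 after lowess centring and 0.54 with 50 added to every signal, each short of 2-fold.

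Epithelial and oviduct markers were higher on the same array as Erbb3. All 14 measured markers of 16 listed had ratios above 0, and 6 were at least 2-fold higher, where 3.34% of all measured genes were. Foxj1 (19.1 and 75.1) and Ccdc39 (27.4 and 72.9), 2 of these 6, passed the filter only through their ulipristal signal. The 14 measured markers had a summed signal of 5127 with vehicle and 8190 with ulipristal. Most of each sum came from Ovgp1 alone, which read 3641 and 5642. Epcam, an epithelial adhesion molecule, read 107 and 268. Cldn4 (14.8 and 6.80) and Pax8 (8.26 and 41.3) were too dim to be measured. Their part in the Erbb3 value was not tested. In whole ovaries, fewer cells of a type and less RNA per cell cannot be told apart.

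The feedback inhibitor Errfi1 was lower with ulipristal on both of its probe sets. Probe set 1416129_at read 6713 with vehicle and 1053 with ulipristal, and probe set 1419816_s_at read 1079 and 198. The log2 ratios were -2.67 and -2.45, or 6.38-fold and 5.46-fold lower. The difference between the probe sets was thus smaller than the median scatter given above. The ratio of the brighter one ranked 14 from the lowest among measured genes.

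**Figure D2:**
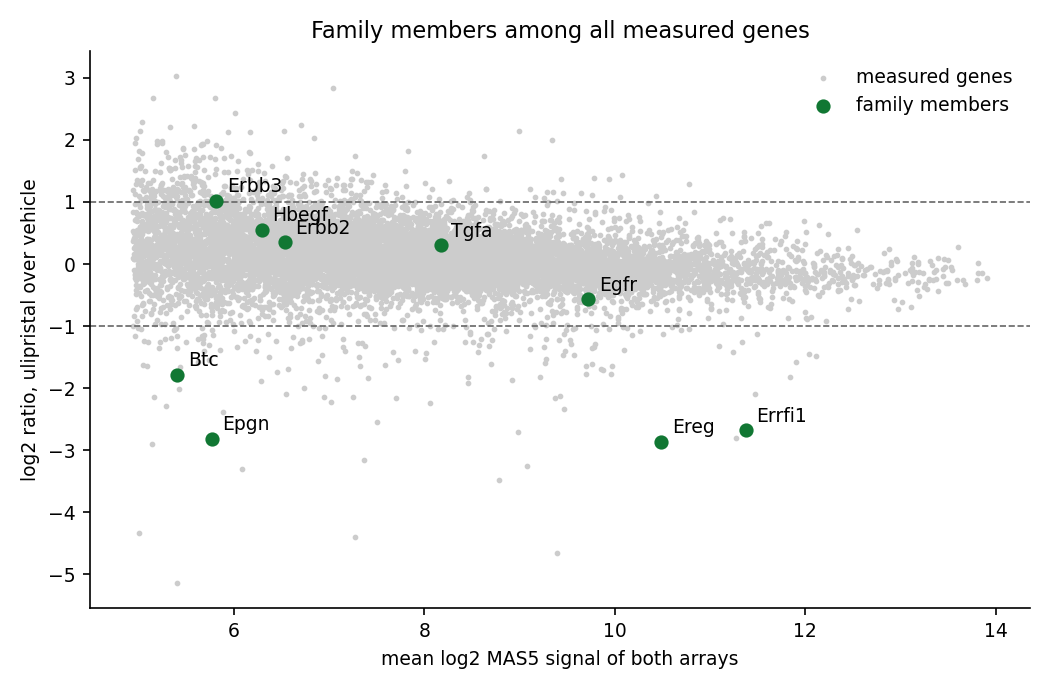
Log2 ratio (ulipristal over vehicle) against the mean log2 MAS5 signal of both arrays for 11364 measured genes (grey) and the 9 measured family members (green), with dashed lines at 2-fold. Ereg and Errfi1 lie far below the cloud at high signal, Epgn and Btc below it at low signal, and the other 5 members lie within or at the edge of the cloud.

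The genes whose pair of signals lay nearest to those of Errfi1 and Ereg were identified by Euclidean distance over the log2 signals of both arrays. With only 2 samples this finds genes of like signal and ratio and says nothing more about likeness. For Errfi1 the nearest were Adamts1 (6495 and 936, distance 0.18), a protease that cleaves versican, Vcan (5886 and 1376, distance 0.43), the matrix proteoglycan versican, and Mt2 (6872 and 1948, distance 0.89), a metallothionein. For Ereg no gene lay within a distance of 1, and the nearest were Tagln2 (1841 and 536, distance 1.08), Adamts1 (distance 1.10) and Ier3 (1771 and 569, distance 1.14).

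Ereg, Epgn and Btc share their place in the genome. In RefSeq (GRCm38.p6) Epgn, Ereg, Areg and Btc are 4 consecutive protein-coding genes on chromosome 5. Of the 8 protein-coding genes on each side, 8 in all were measured. Of these, 1 was lower and 0 were higher by 2-fold or more, where 1.56% and 3.34% of all measured genes were. Mthfd2l, a mitochondrial folate enzyme gene next to Epgn, read 217 and 164, a log2 ratio of -0.40. Parm1, next to Btc, read 1309 and 954, a log2 ratio of -0.46. The lower neighbour was the chemokine gene Cxcl1, with 149 and 65.6, a log2 ratio of -1.18. The 8 measured flanking genes were closer to 0 than the 3 ligands. Epgn and Btc passed the filter only through their vehicle signal, so this contrast is a description.

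**Figure D3:**
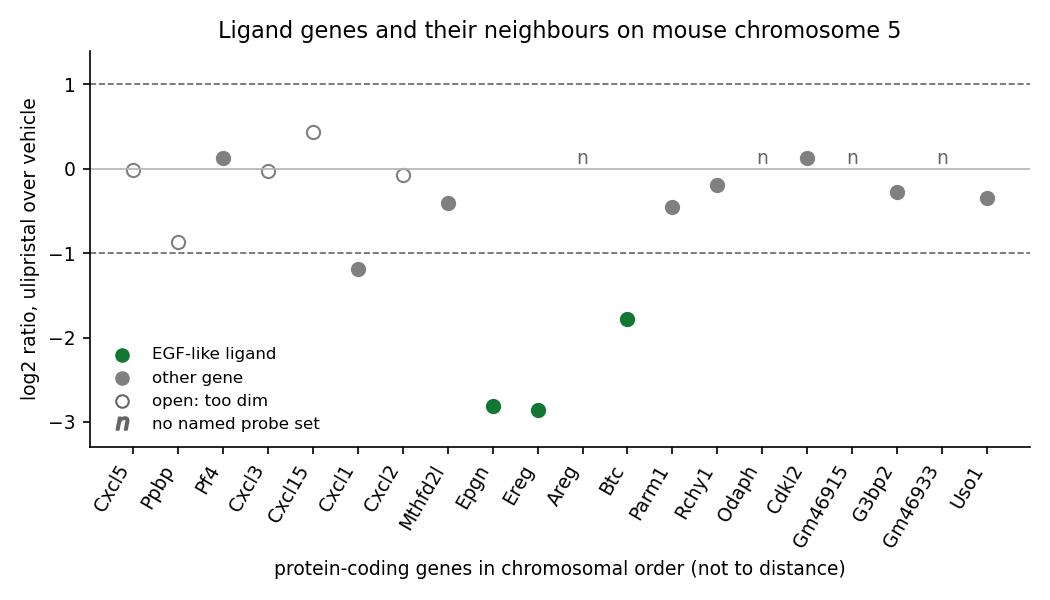
Log2 ratio (ulipristal over vehicle) of protein-coding genes in their order on mouse chromosome 5, from 8 genes before Epgn to 8 after Btc; filled points were measured, open points were too dim, the letter n marks genes with no named probe set, and dashed lines mark 2-fold. The ligands Epgn, Ereg and Btc (green) lie between -2.86 and -1.78, and of the measured neighbours only Cxcl1 (-1.18) lies below -1.

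Other members of the EGF family were too dim to be measured. Of the remaining ligands and the receptor ErbB4, 0 were measured. Egf read 23.1 with vehicle and 23.5 with ulipristal, Nrg1 read 11.4 and 10.5, and Erbb4 read 2.39 and 7.89.

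On the brightest probe set of each, the measured genes that act between the ligands and ERK differed by less than 2-fold. Of 13 measured genes of ligand shedding, 0 reached 2-fold in either direction, where 1.56% of all measured genes were lower and 3.34% higher. At such shares few or no genes past 2-fold are to be found in lists this short. The counts for this list and the next ones are therefore descriptions. The median log2 ratio of the shedding genes was 0.22. Adam17, the main protease that releases EGF-like ligands, read 519 with vehicle and 620 with ulipristal. The largest ratios in that list were those of Frmd8, a partner of the iRhom proteins that guide Adam17 (96.5 and 160), and of Timp1, a metalloprotease inhibitor (4060 and 2473). Of 19 measured genes that restrain the EGF receptor, 0 were past 2-fold, and the median was -0.08. With the median over probe sets in place of the brightest one, 1 of these 19 was lower by 2-fold or more. Cblb, a ubiquitin ligase, read 571 and 303, a log2 ratio of -0.91, and Ptprj, a receptor phosphatase, read 27.5 and 47.0, a log2 ratio of 0.77. Of 19 measured adaptors and ERK cascade genes, 0 were past 2-fold, with a median of 0.15. Shc1, an adaptor of the receptor, read 145 and 257, and Araf, a kinase of the cascade, read 175 and 255.

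Genes known to respond to ERK and genes of cumulus expansion included many that were lower with ulipristal. Of 17 measured ERK response genes, 9 lay 2-fold or more below vehicle and 0 above it, where 1.56% and 3.34% of all measured genes did. Their median log2 ratio was -1.12, and that of all measured genes 0.09. The lower members were Fosl1, a subunit of AP-1 (86.4 and 17.7), the phosphatases Dusp5 (442 and 98.7), Dusp4 (171 and 52.6) and Dusp6 (1043 and 478), Ier3 (log2 ratio -1.64), the transcription factor Egr1 (7379 and 2631), and the pathway inhibitors Spry2 (650 and 261), Spry4 (74.8 and 32.3) and Spred1 (599 and 276). The 6 measured Spred1 probe sets ran from -1.25 to 0.34 in log2 ratio, and Spry4 was -0.28 on its second probe set. Of 11 measured cumulus expansion genes, 6 lay 2-fold or more below vehicle and 0 above it, against the same shares of all measured genes, and the median was -1.62. These were Il6 (713 and 33.7), Ptgs2 (1467 and 132), Adamts1, Vcan, Tnfaip6 (322 and 90.2) and Has2 (58.0 and 18.8), which encode a cytokine, a cyclooxygenase, a protease, a proteoglycan, a hyaluronan-binding protein and a hyaluronan synthase. Fosl1 and Has2, like Epgn and Btc, passed the filter only through their vehicle signal, so these counts too are descriptions. Both lists hold genes that were chosen with earlier results of these data known.

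**Figure D4:**
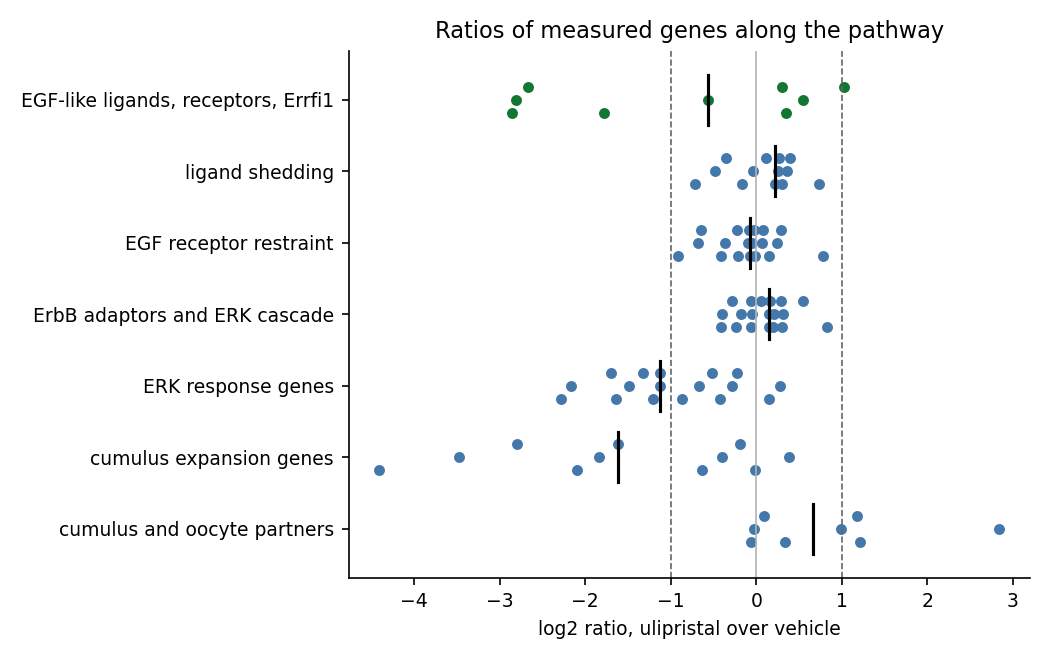
Log2 ratio (ulipristal over vehicle) of each measured gene (points) and the median (black bar) for the family and for lists of genes along its pathway, with dashed lines at 2-fold. Shedding, restraint and cascade genes lie within 2-fold, and 9 of 17 ERK response genes and 6 of 11 cumulus expansion genes lie at or below -1.

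The markers of the ovary were present on both arrays. Of 10 granulosa markers 10 were measured, with a summed signal of 30820 and 35680 and a median log2 ratio of 0.35. Of these, Fshr (1.18), Inhba (1.39) and Inhbb (1.44) were past 2-fold higher in log2 ratio, and 0 were past 2-fold lower. Of 8 oocyte markers 7 were measured, with a median of 0.14. The medians of the other marker lists were 0.47 for theca and interstitium, 0.17 for endothelium, 0.18 for macrophages, 0.12 for smooth muscle, 0.92 for adipose cells (3 measured), 0.91 for epithelium and oviduct, and -1.46 for neutrophils (3 measured). The theca list held 1 gene past 2-fold lower (Hhip, -2.22) and 2 past 2-fold higher (Tcf21, 1.15, and Fabp3, 1.32). The neutrophil markers were split, with S100a8 (-1.46) and S100a9 (-1.89) lower and Ltf (1.45) higher.

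**Figure D5:**
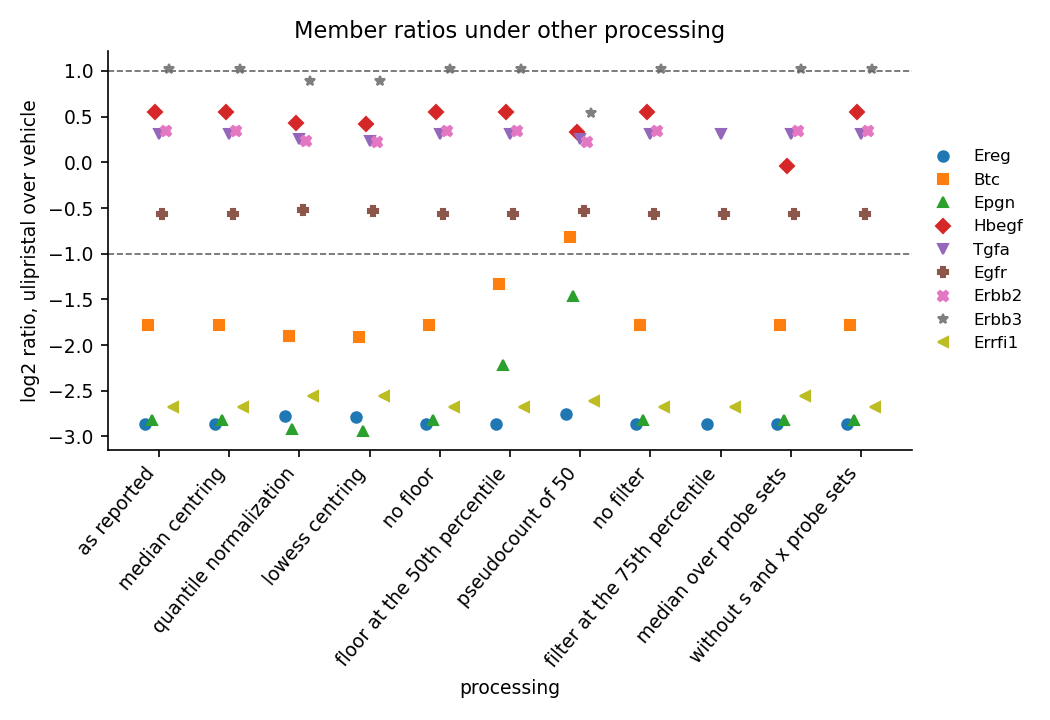
Log2 ratio (ulipristal over vehicle) of each measured member as reported and under 10 other processing settings, with dashed lines at 2-fold; a missing point means the gene was not measured under that setting. Ereg and Errfi1 stay between -2.86 and -2.56. Btc and Erbb3 cross the 2-fold line with 50 added to every signal, and Erbb3 also after quantile normalization and lowess centring.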

How the data were processed

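The authors deposited linear intensities, 1 per probe set, from Affymetrix Mouse Genome 430 2.0 arrays, made from 100 ng of total RNA per the labels' protocols. MAS5 and Affymetrix Expression Console version 1 are named in the submitters' processing notes, without their roles. Global scaling hides a shift shared by most genes. Detection calls were not used here. Precision is limited by the number of arrays, 1 per group. Groups come from the treatment label.

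The annotation named 1 gene for 34945 of 45101 probe sets, several for 932 and none for 9160, beside 64 controls. Gene identifiers were found in RefSeq for 34741 and 0 symbols changed. Signals below 7.17 were set to that floor before log2. Calls were made at 2-fold, with no test. The members, lists and thresholds were chosen with earlier results of these data known. The text names every member, and from each pathway list its genes past 2-fold or the 2 with the largest ratios; marker lists are given by counts, and others were chosen after their values were seen (Adam17, Egf, Nrg1, Erbb4, Mthfd2l, Parm1, Cxcl1, Nppc, Gdf9, Bmp15, Gja1 and the markers named). The steps were run on simulated data, which checked that differences put in were recovered. That check did not cover false calls or the spread between animals. Alternatives concerned scaling, floor, filter, probe set choice and fold threshold. Software was Python 3.11.15 with pandas 2.3.3, numpy 2.4.6, matplotlib 3.10.9 and statsmodels 0.14.6.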

Additional observations from a re-analysis of the deposited data

How the results depend on the processing

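The log2 ratios of Ereg and Errfi1 ran from -2.86 to -2.75 and from -2.67 to -2.56 over 10 alternatives each. That of Epgn ran from -2.95 to -1.46 over 9, and all were past 2-fold. Many alternatives left a value unchanged. For Ereg, only quantile normalization, lowess centring and the pseudocount of 50 changed it. Btc reached 2-fold under 8 of 9 alternatives and Erbb3 under 6 of 9. Under those 6 the Erbb3 value was unchanged at 1.02, so they are no check on it. Each setting that changed the Erbb3 value left it short of 2-fold. Most of the 8 likewise left the Btc value at -1.78. With the filter at the 75th percentile, 4 members were measured, of which 2 were at least 2-fold lower, because Epgn and Btc were then too dim. The count of members at least 2-fold higher, 1 as reported, was 0 after quantile normalization, after lowess centring, with a pseudocount of 50, with that filter and at 3-fold. Of the 87 measured genes of the pathway lists, 15 lay 2-fold or more below vehicle and 3 above it. Among all measured genes, 1.56% were lower and 3.34% higher, so the count above vehicle is near the general share. The lower genes were the 9 of the ERK response list and the 6 of the cumulus expansion list. The count above vehicle was 1 with the filter at the 75th percentile, 7 at 1.5-fold and 1 at 3-fold. Single-list counts were within 1.5 times in 159 of 168 cases. Most of these counts were 0 as reported, and the list of other EGF family ligands and ErbB4 held 0 measured genes. The 159 cases therefore say little about counts above 0. The 9 ERK response genes counted as lower became 4 at 3-fold. Of all genes past 2-fold, 68.2% were higher as reported, 57.3% after quantile normalization, 56.3% after lowess centring, 36.5% with the stricter filter and 35.5% with the pseudocount. Median centring changed no value, since the median over all probe sets was 0. No paired analysis was possible because each group has 1 array. Low signal limits Btc, Epgn, Hbegf and Erbb3.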

Other observations

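A mixed list of hormone receptors, oocyte factors, connexins and natriuretic peptide signalling genes of the follicle was also compared. Of 8 measured genes, 3 lay 2-fold or more above vehicle, where 3.34% of all measured genes did, and 0 below it, where 1.56% did. The list was chosen with earlier results of these data known, so the count is a description. The count above vehicle was 2 with a pseudocount of 50 and 1 of 4 with the filter at the 75th percentile. At 3-fold it was 1, and at 1.5-fold 4. The median log2 ratio was 0.66. Pgr, the progesterone receptor, which ulipristal binds, read 49.2 with vehicle and 351 with ulipristal. Npr2, the receptor that keeps the oocyte in meiotic arrest through cyclic GMP, read 264 and 611, and its ligand gene Nppc read 57.4 and 114, a log2 ratio of 0.99. Fshr, the receptor of follicle-stimulating hormone, read 51.1 and 116. The oocyte factors Gdf9 (309 and 329) and Bmp15 (66.1 and 63.5) and the connexin Gja1 (7682 and 7558) had log2 ratios between -0.06 and 0.09. Lhcgr is not analysed here.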
